A study of Homo sapiens with 4 samples.

Results

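CXC chemokine ligands are small secreted proteins that guide migrating cells, and 10 of their genes were described here in 2 breast cancer cell lines: CXCL1, CXCL2, CXCL3, CXCL5, CXCL6, IL8 (the older symbol of CXCL8), CXCL10, CXCL11, CXCL14 and CXCL16. They are the rows with these symbols among the 57815 genes of the deposited expression table, and were chosen with the difference between the cell lines known. The difference itself is therefore given as a description and not as a test. RNA-Seq was performed on MDA-MB-231, a line of triple-negative breast cancer, and on LM2-4175, a derived line that spreads to the lung, with 2 libraries of each and 4 in all. LM2-4175 is written LM2 here, after the column names of the table. Both were untreated and grown in DMEM with 10% FBS. The libraries of a line are combined into a single value for each gene, so no replicate error could be computed and no test between replicates was run. LM2 is a single such line, and whether its libraries came from separate cultures is not stated. In bulk RNA, fewer expressing cells and less RNA per cell cannot be told apart.

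CXC chemokines take their name from a pair of cysteines parted by a single residue. Ligands with the residues Glu-Leu-Arg before this pair, called ELR-positive (CXCL1, CXCL2, CXCL3, CXCL5, CXCL6 and IL8), attract neutrophils through CXCR1 and CXCR2 and promote the growth of blood vessels, and their genes are classical targets of NF-kB and of IL-1 signalling. CXCL10 and CXCL11 lack these residues, are induced by interferon and attract T cells through CXCR3, while CXCL16 is made as a membrane protein that binds CXCR6 and can be shed from the cell surface.

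Values are FPKM, which counts fragments relative to the length of a transcript and to all mapped fragments, followed in brackets by the lower and upper bounds that the authors deposited. How these bounds were made is not stated, nor whether they cover the spread between libraries. A gene passed the filter where its status was OK and its mean FPKM over both cell lines was at least 0.5, which 13911 genes did. A call of higher or lower in LM2 required a difference of 1.5-fold or more in FPKM + 1 together with bounds that did not overlap. Summed over the table, MDA-MB-231 had 632944 FPKM and LM2 598147 FPKM, and the table holds no read counts, so the number of reads behind a value is not known from it. Markers of a mesenchymal, receptor-poor breast cancer line were read to check the labels. VIM was at 1355 and 1768 FPKM and CD44 at 470 and 355 FPKM in MDA-MB-231 and LM2, while ESR1, PGR and CDH1 were at most 0.851 FPKM, and ERBB2, listed with these as a low marker, was at 35.0 and 22.8 FPKM.

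The promoters of the members were not used to choose them, and windows of them are shown first, so that their letters can be read beside the levels. Whether the levels depend on these letters was not tested. RefSeq promoter sequence on GRCh38.p14 was found for 9 of the 10 members. In the 250 bases before the start, the NF-kB motif GGNNNTTCC, searched on both strands, was present in 8 of these 9 (CXCL14 is the exception), in 17.1% of 35116 promoters of the same length, and in 0 of the 6 other CXC ligands with a promoter. The following windows hold the stretch just before the start of the ELR-positive genes, 5′ to 3′ on the strand of the gene, with NF-kB matches in capitals. They lie at chr4:73740419-73740568 (IL8, plus strand), chr4:73869283-73869392 (CXCL1, plus), chr4:74099196-74099305 (CXCL2, minus), chr4:74038690-74038799 (CXCL3, minus), chr4:73998678-73998787 (CXCL5, minus) and chr4:73836568-73836677 (CXCL6, plus).
IL8: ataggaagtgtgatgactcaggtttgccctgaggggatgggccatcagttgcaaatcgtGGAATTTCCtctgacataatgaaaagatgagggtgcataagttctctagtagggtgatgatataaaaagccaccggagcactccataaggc
CXCL1: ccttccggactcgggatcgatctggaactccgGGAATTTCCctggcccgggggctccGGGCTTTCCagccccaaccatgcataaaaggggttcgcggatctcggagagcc
CXCL2: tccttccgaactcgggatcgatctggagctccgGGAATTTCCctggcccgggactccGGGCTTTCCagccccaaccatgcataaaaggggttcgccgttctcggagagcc
CXCL3: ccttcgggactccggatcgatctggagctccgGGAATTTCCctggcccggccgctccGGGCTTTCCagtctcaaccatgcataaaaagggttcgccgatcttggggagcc
CXCL5: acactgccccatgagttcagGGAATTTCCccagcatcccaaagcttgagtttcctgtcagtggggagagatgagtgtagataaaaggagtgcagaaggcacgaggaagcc
CXCL6: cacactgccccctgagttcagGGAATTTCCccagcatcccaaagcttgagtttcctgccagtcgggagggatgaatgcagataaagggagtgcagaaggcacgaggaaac

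All 6 windows held the same 9 letters, GGAATTTCC. The match began 91 bases before the start in IL8, 90 in CXCL5, 89 in CXCL6, 78 in CXCL1 and CXCL3 and 77 in CXCL2. CXCL1, CXCL2 and CXCL3 held another match, GGGCTTTCC, that began 53 bases before the start in each of them. Identity over the aligned 250 bases before the start was 81.4% between CXCL1 and CXCL3, 70.1% between CXCL1 and CXCL2, 73.4% between CXCL2 and CXCL3, and 85.3% between CXCL5 and CXCL6. The identities of IL8 with the other members were 43.9 to 52.7%. Those of the other ELR-positive genes with CXCL10, CXCL11 and CXCL14 were much the same, at 41.9 to 50.3%. A match to these letters is a description of the sequence and not a site known to be bound in these cells.

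CXCL10 and CXCL11 hold the letters GGAAATTCC, which read GGAATTTCC on the other strand, at positions of their own. The next windows, from the same build, show bases 230 to 101 before the start of CXCL10 (chr4:76023598-76023727, minus strand) and the 100 bases before that of CXCL11 (chr4:76036071-76036170, minus strand). NF-kB matches and, in CXCL10, the interferon-stimulated response element (ISRE, GAAA repeated after any 2 bases) are in capitals.
CXCL10: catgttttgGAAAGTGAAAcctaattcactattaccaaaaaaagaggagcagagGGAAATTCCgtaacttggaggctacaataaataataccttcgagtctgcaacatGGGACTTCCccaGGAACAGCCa
CXCL11: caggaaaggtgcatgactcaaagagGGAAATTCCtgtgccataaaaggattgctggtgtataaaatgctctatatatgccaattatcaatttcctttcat

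CXCL10 held the only ISRE match among the 9 members, GAAAGTGAAA, at 221 bases before the start, and 3.02% of all promoters held one. Its NF-kB matches were GGAAATTCC, GGGACTTCC and, on the other strand, GGAACAGCC, at 176, 122 and 110 bases. CXCL11 had 1 match, GGAAATTCC, at 75 bases. The AP-1 motif TGANTCA was found in IL8, CXCL11 and CXCL14 (3 of 9 members, and 6.57% of all promoters). The C/EBP motif TTNNGCAA was found in CXCL2 alone of the 9 (9.05% of all promoters), and the TATA box letters TATAAA in IL8 and CXCL11 (10.7%). Such fixed letters miss variants of a motif, so a motif not found here is not shown to be absent. The IL8 window above holds ttgcaaat, for instance, which the C/EBP letters do not match. The GAS motif TTCNNNGAA was found in CXCL5, CXCL6 and CXCL11 (6.57%), and in CXCL5 and CXCL6 it overlapped the NF-kB match.

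**Figure D1:**
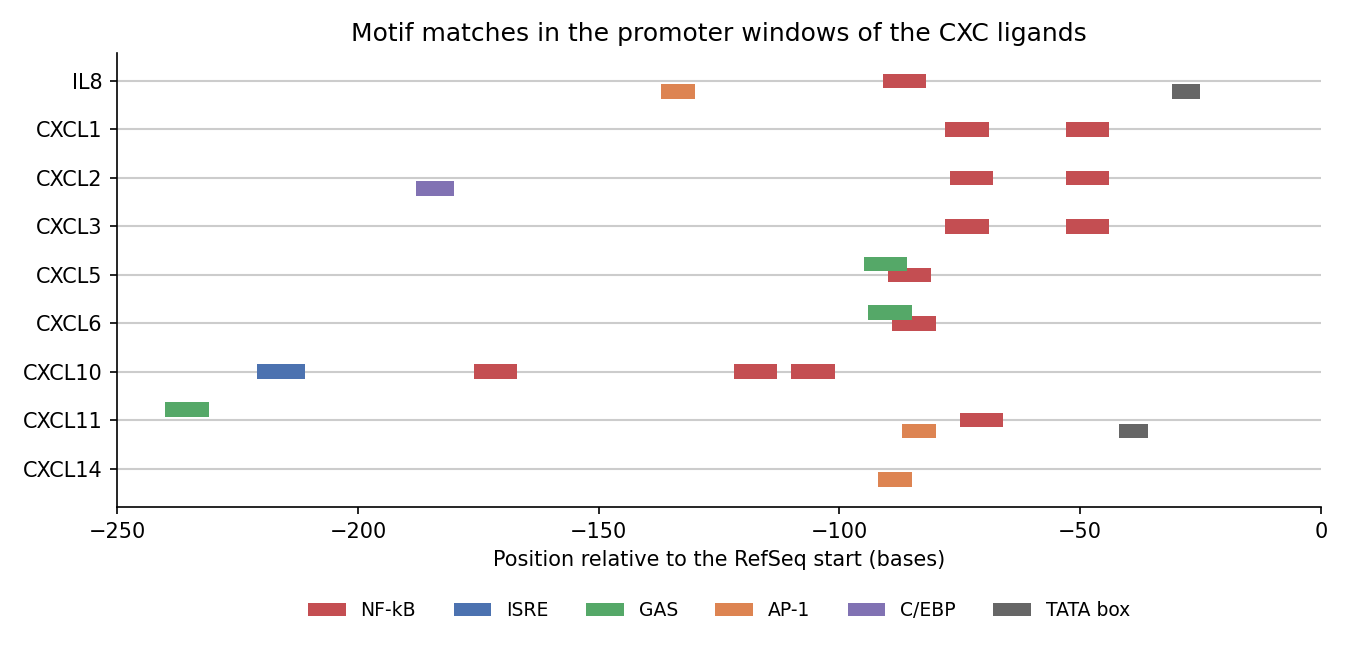
Positions of motif matches in the 250 bases before the RefSeq start of 9 CXC ligand genes. The horizontal axis gives the position relative to the start in bases, each grey line is a gene and each coloured bar a match on either strand. An NF-kB match (red) is seen in 8 of the 9 genes, and CXCL1, CXCL2 and CXCL3 each have a further one that begins 53 bases before the start.

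Among the members, the cell lines differed most in 4 ELR-positive ligands. IL8, CXCL1, CXCL2 and CXCL3 were called higher in LM2, and 4.67% of all 13911 genes were called higher. No member was called lower, and 4.61% of all genes were. Since the members were chosen on this contrast, these counts describe the choice. With the fold alone the members' counts stayed at 4 and 0, beside 10.3% and 11.8% of all genes. With the fold alone on FPKM without a pseudocount or a filter, a rule tried after seeing the data, 6 members were higher and 4 lower, beside 29.9% and 23.1% of the genes above 0 in either line. CXCL16 passed the filter without a call, and the other 5 members (CXCL5, CXCL6, CXCL10, CXCL11 and CXCL14) were below the filter. The 4 called genes were at 1.11 FPKM or more in MDA-MB-231 and so would have passed on the value of either line alone.

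IL8 encodes interleukin 8, a potent neutrophil attractant, and lies on GRCh37 at chr4:74606236-74609433, plus strand (ENSG00000169429.6). It was at 7.75 FPKM [5.33, 10.2] in MDA-MB-231 against 338 FPKM [260, 417] in LM2. The ratio was 43.6, and the bounds allow 25.5 to 78.2. In MDA-MB-231 the gene stood at rank 8244 of the 13911 genes by level, and in LM2 at rank 213, within the top 1.53%. By the log2 ratio of FPKM + 1, which was 5.28, it was at rank 12 among the increases of all genes that passed.

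CXCL1 (chr4:74735110-74737025, plus strand, ENSG00000163739.4), a ligand of CXCR2 also known as GRO-alpha, was at 2.86 FPKM [1.72, 3.99] in MDA-MB-231 against 119 FPKM [91.6, 146] in LM2. The ratio of 41.6, with 22.9 to 85.0 allowed by the bounds, was close to that of IL8, and the ranges of both ratios overlap widely. Its rank by level moved from 10652 to 776, and its log2 ratio of 4.96 was at rank 14 among the increases.

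CXCL3 and CXCL2, the near relatives of CXCL1 known as GRO-gamma and GRO-beta, reached lower levels in LM2 than IL8 and CXCL1. CXCL3 (chr4:74902306-74904524, minus strand, ENSG00000163734.4) was at 1.11 FPKM [0.567, 1.66] in MDA-MB-231 against 28.8 FPKM [21.5, 36.1] in LM2, a ratio of 25.9 with 13.0 to 63.7 allowed. CXCL2 (chr4:74962757-74964913, minus strand, ENSG00000081041.8) was at 4.03 FPKM [2.58, 5.47] and 44.7 FPKM [33.8, 55.6]. Its ratio of 11.1, with 6.17 to 21.5 allowed, was the smallest of the 4, and its allowed range lies below that of IL8 and of CXCL1 but overlaps that of CXCL3. In log2 the changes were 3.82 for CXCL3 and 3.18 for CXCL2, at ranks 30 and 47 among the increases.

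CXCL5 and CXCL6, the remaining ELR-positive ligands, were close to 0 in both cell lines. CXCL5 (chr4:74861359-74864394, minus strand) was at 0.00512 FPKM [0, 0.0263] in MDA-MB-231 against 0.0797 FPKM [0.0141, 0.145] in LM2, with overlapping bounds. CXCL6 (chr4:74702357-74714781, plus strand) was listed at 0 in MDA-MB-231 against 0.0133 FPKM [0, 0.122] in LM2, so its ratio has no finite value. The rule without a pseudocount or a filter counted CXCL6 as higher only because its value in MDA-MB-231 is 0. These are the genes whose promoter windows, printed above, hold the same NF-kB letters as those of the 4 called ligands. In CXCL5, 17.3% of the exon bases overlap an exon of another gene on the opposite strand, and in CXCL6 4.61% overlap PPBPP1 on the same strand. Strand use in counting is not stated.

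The ELR-negative ligands were all low. CXCL10 (chr4:76942271-76944650, minus strand) was at 0.352 FPKM [0.0158, 0.689] in MDA-MB-231 against 0.136 FPKM [0, 0.299] in LM2. CXCL11 (chr4:76954835-76962568, minus strand) was at 0.703 FPKM [0.294, 1.11] and 0.180 FPKM [0.00175, 0.359]. The value in LM2 was the lower one for both genes, but the bounds overlap. CXCL14 (chr5:134906369-134914969, minus strand), a ligand made by epithelial cells of many tissues, was at 0.198 FPKM [0.0620, 0.334] and 0.0303 FPKM [0, 0.0812], again with overlapping bounds. The log2 differences of FPKM + 1 were -0.25, -0.53 and -0.22, a scale that understates changes at such low levels.

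CXCL16 (chr17:4636828-4643223, minus strand) was the highest of the ELR-negative members and the only one that passed the filter. It was at 1.44 FPKM [0, 2.95] in MDA-MB-231 against 0.650 FPKM [0, 1.58] in LM2, a log2 difference of -0.57. Both lower bounds are 0, so the table does not resolve this difference. Exons of MED11 and ZMYND15 on the opposite strand overlap 6.16% of its exon bases. Of the proteases that release CXCL16 from the membrane, ADAM10 was called lower, with 79.4 FPKM [57.9, 101] in MDA-MB-231 against 37.7 FPKM [27.4, 48.0] in LM2. ADAM17 was at 15.0 and 15.6 FPKM and was not called.

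**Figure D2:**
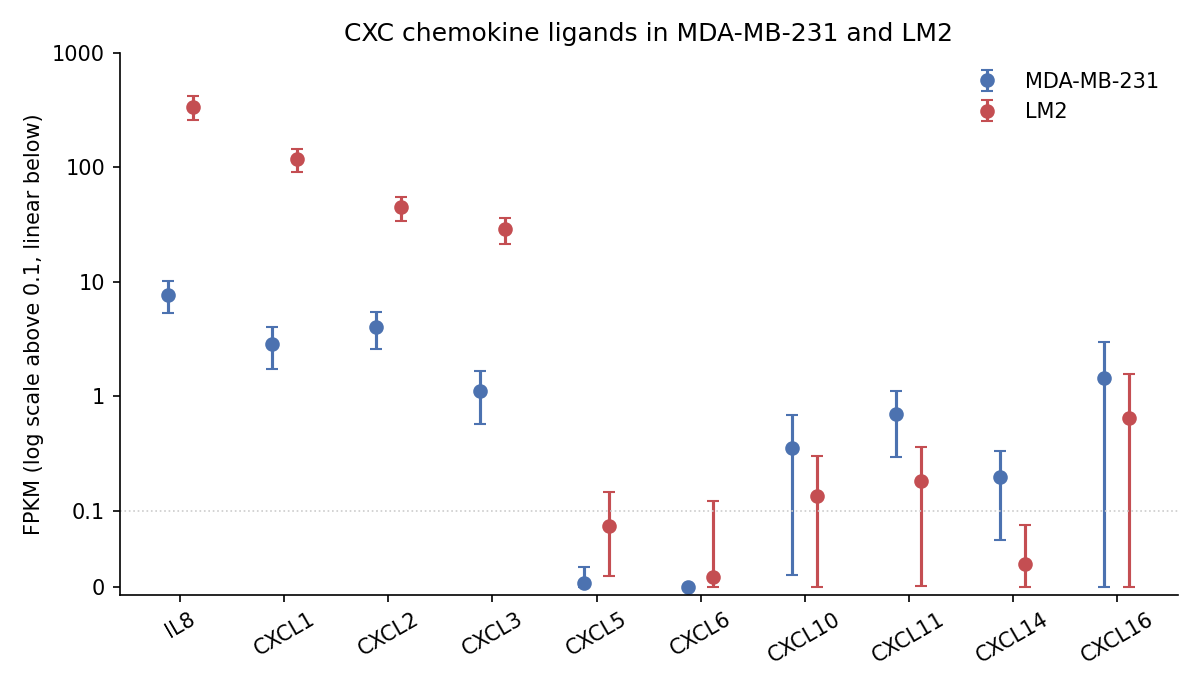
FPKM of the 10 CXC ligand genes in MDA-MB-231 (blue) and LM2 (red). Points are the pooled values and bars the bounds given by the authors, on an axis that is logarithmic above 0.1 FPKM and linear below. IL8, CXCL1, CXCL2 and CXCL3 are at 28.8 FPKM or more in LM2 with bounds clear of those of MDA-MB-231, while the bounds of the other 6 genes overlap.

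FPKM is given per length, so the levels of the ligands can be set beside each other. The 6 ELR-positive ligands summed to 15.8 FPKM in MDA-MB-231 against 531 FPKM in LM2, a ratio of 33.7, or 0.00249% and 0.0887% of the FPKM of all genes. The order was IL8, CXCL2, CXCL1 and CXCL3 in MDA-MB-231, where the bounds of IL8 and CXCL2 overlap, those of CXCL2 and CXCL1 overlap, and those of CXCL1 and CXCL3 do not. In LM2 the order was IL8, CXCL1, CXCL2 and CXCL3, and only the neighbours CXCL2 and CXCL3 had overlapping bounds.

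Within this sum, the share of IL8 was 49.2% in MDA-MB-231 against 63.7% in LM2, with standard errors of 4.92 and 3.24 percentage points. These errors were propagated from the bounds, with the upper bound assumed to lie 2 standard errors above a value. As for the bounds, it is not known whether they cover the spread between libraries. CXCL2 held 25.6% (SE 4.07) in MDA-MB-231 against 8.41% (SE 1.15) in LM2, which was the largest change in share. CXCL1 held 18.1% (SE 3.38) and 22.4% (SE 2.61), and CXCL3 held 7.06% (SE 1.75) and 5.43% (SE 0.779), shares that lie close to each other beside these errors. As a ratio of levels, IL8 was at 2.71 times CXCL1 in MDA-MB-231 against 2.84 times in LM2, but at 1.92 and 7.57 times CXCL2.

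**Figure D3:**
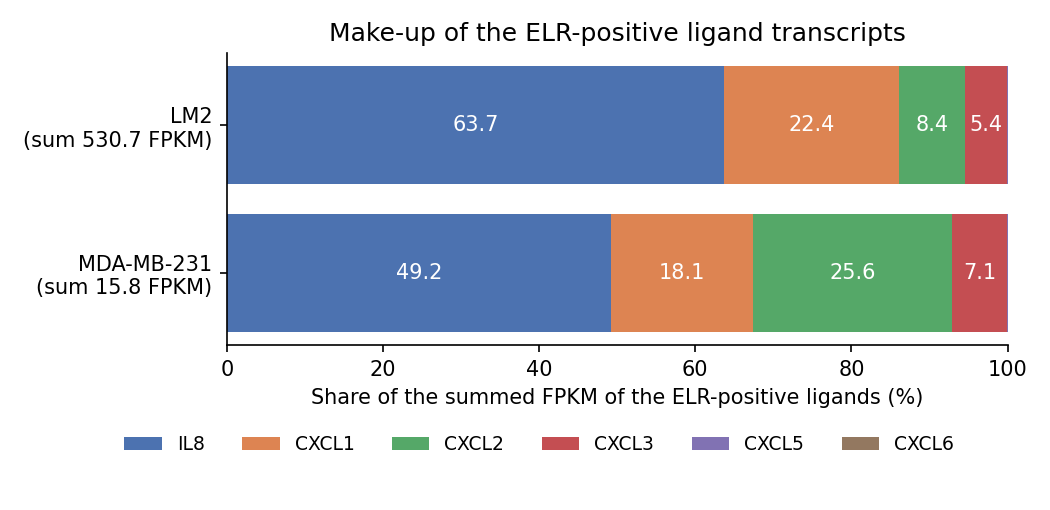
Share of each ELR-positive ligand in the summed FPKM of the 6 ligands, in percent, for MDA-MB-231 (sum 15.8 FPKM) and LM2 (sum 531 FPKM). IL8 takes 49.2% and 63.7% and CXCL2 25.6% and 8.41%, while CXCL5 and CXCL6 are too small to be seen.

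CXCL1, CXCL2 and CXCL3 are close in sequence, so reads of one could be counted for another. Their canonical transcripts had 5.33%, 10.1% and 5.26% of their 50-base stretches in common with one another, and 0% of their 150-base stretches. No member had a 150-base stretch in common with another gene. IL8 shared no 50-base stretch. How much these short stretches moved reads between CXCL1, CXCL2 and CXCL3 was not tested.

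The ELR-positive genes lie together on chromosome 4, a position that was not used to choose them. Read from the start of IL8, the protein-coding genes were CXCL6 at 96.1 kb, PF4V1 at 113 kb, CXCL1 at 129 kb, PF4 at 242 kb, PPBP at 248 kb, CXCL5 at 258 kb, CXCL3 at 298 kb and CXCL2 at 359 kb. Of these 9 genes, IL8 included, the 4 that passed the filter were the 4 called higher. CXCL3 and CXCL2 are neighbours, while genes near 0 lie between the others. These were PF4V1 and PPBP, listed at 0 in both cell lines, CXCL5 and CXCL6 with the values given above, and PF4 with 0.172 FPKM [0, 0.396] in MDA-MB-231 against 0.312 FPKM [0.00483, 0.620] in LM2.

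The nearest genes above the filter on either side of the cluster were not called. Within 500 kb on either side, 30 genes were no members and 6 of them passed the filter, with a median log2 difference of 0.38 against -0.04 over all genes that passed. MTHFD2L, a mitochondrial folate enzyme that starts 374 kb from the start of IL8, was at 6.62 FPKM [3.88, 9.36] in MDA-MB-231 against 9.72 FPKM [5.91, 13.5] in LM2 and was not called. ALB, AFP and ANKRD17 on the other side had log2 differences of 0.16, 0.32 and 0.44 with overlapping bounds. Farther off, the EGF-family ligand gene EREG rose from 4.45 FPKM [3.22, 5.69] to 36.3 FPKM [27.7, 45.0]. AREG, another EGF-family ligand, was lower, with 7.08 FPKM [4.82, 9.35] in MDA-MB-231 against 1.14 FPKM [0.582, 1.71] in LM2, a value that is uncertain because the table also holds its near-identical copy AREGB.

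**Figure D4:**
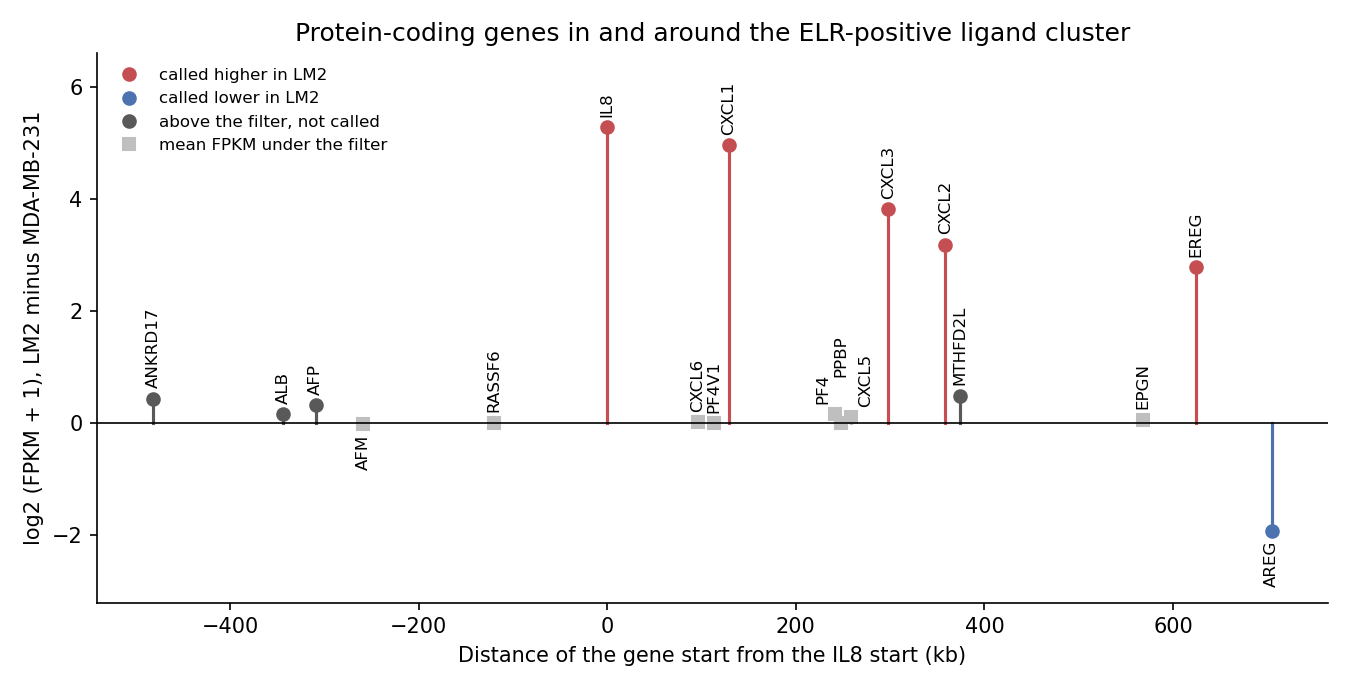
Protein-coding genes in and around the ELR-positive ligand cluster, by the distance of their start from that of IL8 in kb (horizontal axis) and their log2 difference of FPKM + 1, LM2 minus MDA-MB-231 (vertical axis). Circles passed the filter and grey squares did not. IL8 (5.28), CXCL1 (4.96), CXCL3 (3.82) and CXCL2 (3.18) stand out, with genes near 0 between the first 3, and EREG (2.78) and AREG (-1.92) lie farther to the right.

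Around CXCL10 and CXCL11, on the same chromosome, 12 of the 30 other genes within 500 kb passed the filter. None of the 12 was called, and their median log2 difference was 0.06. The largest differences were those of SHROOM3 (-1.35) and NAAA (-0.74), for both of which the bounds overlap. The log2 differences of the other 10 (THAP6, C4orf26, CDKL2, G3BP2, USO1, SDAD1, NUP54, SCARB2, FAM47E and FAM47E-STBD1) ran from -0.57 to 0.34. At CXCL9, the remaining interferon-inducible ligand of this locus, the table lists 0 in both cell lines.

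The 3′ UTRs of the members, read from GENCODE 44 on GRCh37 after the values were known, separated them by AUUUA, the core of the AU-rich elements that mark short-lived cytokine transcripts for decay. The ELR-positive genes held 6 (CXCL1), 10 (CXCL2), 7 (CXCL3), 11 (CXCL5), 6 (CXCL6) and 9 (IL8) copies, which is 5.36 to 14.0 per kb. CXCL10, CXCL11, CXCL14 and CXCL16 held 1 copy each, or 0.852 to 1.23 per kb. The median over 19379 genes was 2 copies and 1.51 per kb. By copies per kb, CXCL2 stood at percentile 99.4 of these genes, CXCL3 at 98.8, CXCL1 at 97.3, IL8 at 96.5, CXCL5 at 92.6 and CXCL6 at 92.1. CXCL5 and CXCL6 carried the repeat while their transcripts were near 0.

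The transcripts of factors that act on the decay or stability of cytokine mRNA did not move one way. Of 7 decay and stabilising factors, all of which passed the filter, 2 were called higher and 2 lower, beside 4.67% and 4.61% of all genes, with a median log2 difference of -0.10. ZC3H12A (regnase-1), a ribonuclease that degrades cytokine mRNA, rose from 3.99 FPKM [2.65, 5.34] to 24.4 FPKM [17.5, 31.3], and ZFP36L1 rose from 64.0 FPKM [48.8, 79.3] to 119 FPKM [91.3, 147]. ZFP36, which encodes tristetraprolin, fell from 15.7 FPKM [11.6, 19.9] to 8.99 FPKM [6.51, 11.5], and ZFP36L2 fell from 16.4 FPKM [11.1, 21.7] to 6.35 FPKM [3.89, 8.81]. ELAVL1, the stabilising factor HuR, was at 80.1 and 70.8 FPKM and was not called.

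Of 8 receptor genes of the ligands 2 passed the filter, and both were called lower in LM2, beside 4.61% of all genes. Both were below 0.5 FPKM in LM2 and passed only through their value in MDA-MB-231. A call of higher was therefore not possible for them, and the direction of these calls follows from the filter. The other 6 were at 0.113 FPKM or less in both cell lines. CXCR4, the receptor of CXCL12, was at 9.56 FPKM [6.96, 12.2] in MDA-MB-231 against 0.254 FPKM [0.0892, 0.419] in LM2. ACKR3, a scavenging receptor of CXCL11 and CXCL12, was at 1.14 FPKM [0.448, 1.82] and 0.0139 FPKM [0, 0.0760]. The receptors of the ligands that rose were at or near 0: CXCR1 was listed at 0 in both cell lines, and CXCR2 was listed at 0 in MDA-MB-231 against 0.00339 FPKM [0, 0.298] in LM2. CXCR3, the receptor of CXCL10 and CXCL11, was at 0.0480 FPKM [0, 0.118] in MDA-MB-231 and listed at 0 in LM2. CXCR6, the receptor of CXCL16, was at 0.113 and 0.0967 FPKM, CXCR5 was at 0.00687 and 0.00349 FPKM, and the chemokine-binding DARC was listed at 0 in both.

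None of the 7 CXC ligands outside the 10 members passed the filter. PF4 had the highest value of them in each cell line, and CXCL12 was at 0.0173 and 0.0170 FPKM. PF4V1, PPBP and CXCL9 were listed at 0 in both cell lines, and CXCL13 and CXCL17 were at most 0.0653 FPKM.

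Among the cytokines and receptors that feed NF-kB, the IL-1 ligands stood out. Of 13 genes of IL-1, TNF and IL-17 input, 11 passed the filter, 2 were called higher and 1 lower, beside 4.67% and 4.61% of all genes, and the median log2 difference was 0.07. IL1B, which encodes the secreted ligand IL-1 beta, was at 1.43 FPKM [0.807, 2.04] in MDA-MB-231 against 819 FPKM [618, 1020.2] in LM2, a log2 difference of 8.40. IL1A rose from 0.219 FPKM [0.0833, 0.356] to 27.9 FPKM [21.2, 34.5], and passed the filter only through its value in LM2. Their receptor IL1R1 fell from 6.95 FPKM [4.58, 9.32] to 3.06 FPKM [1.91, 4.20], and TNF was listed at 0 in both cell lines.

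The NF-kB genes themselves differed less. All 14 subunits, inhibitors and kinases passed the filter, 2 were called higher and 0 lower, beside 4.67% and 4.61% of all genes, and the median log2 difference was 0.31. The inhibitor genes NFKBIA and TNFAIP3, which are themselves NF-kB targets and limit its activity, rose from 38.5 FPKM [29.3, 47.6] to 68.5 FPKM [52.1, 84.9] and from 2.72 FPKM [1.59, 3.84] to 11.2 FPKM [6.63, 15.8]. NFKBIZ, a coactivator, had a log2 difference of 1.47 with overlapping bounds. NFKB2 and BCL3 had differences of 0.76 and -0.73, likewise with overlapping bounds.

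The calls among interferon response genes were all in the other direction. Of 18 genes, all of which passed the filter, 8 were called lower in LM2, beside 4.61% of all genes, and 0 were called higher, 17 had a negative log2 difference, and the median was -0.90. IFI27, a marker of type I interferon exposure, fell from 101 FPKM [70.0, 132] to 1.65 FPKM [0.293, 3.01]. IFIT1 fell from 63.0 FPKM [29.4, 96.6] to 5.34 FPKM [0.167, 10.5], and IFIT2, IFIT3 and ISG15 had log2 differences of -2.46, -2.38 and -1.80. CXCL10 and CXCL11, which respond to interferon too, were listed lower in LM2 with bounds that overlap, as given above.

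**Figure D5:**
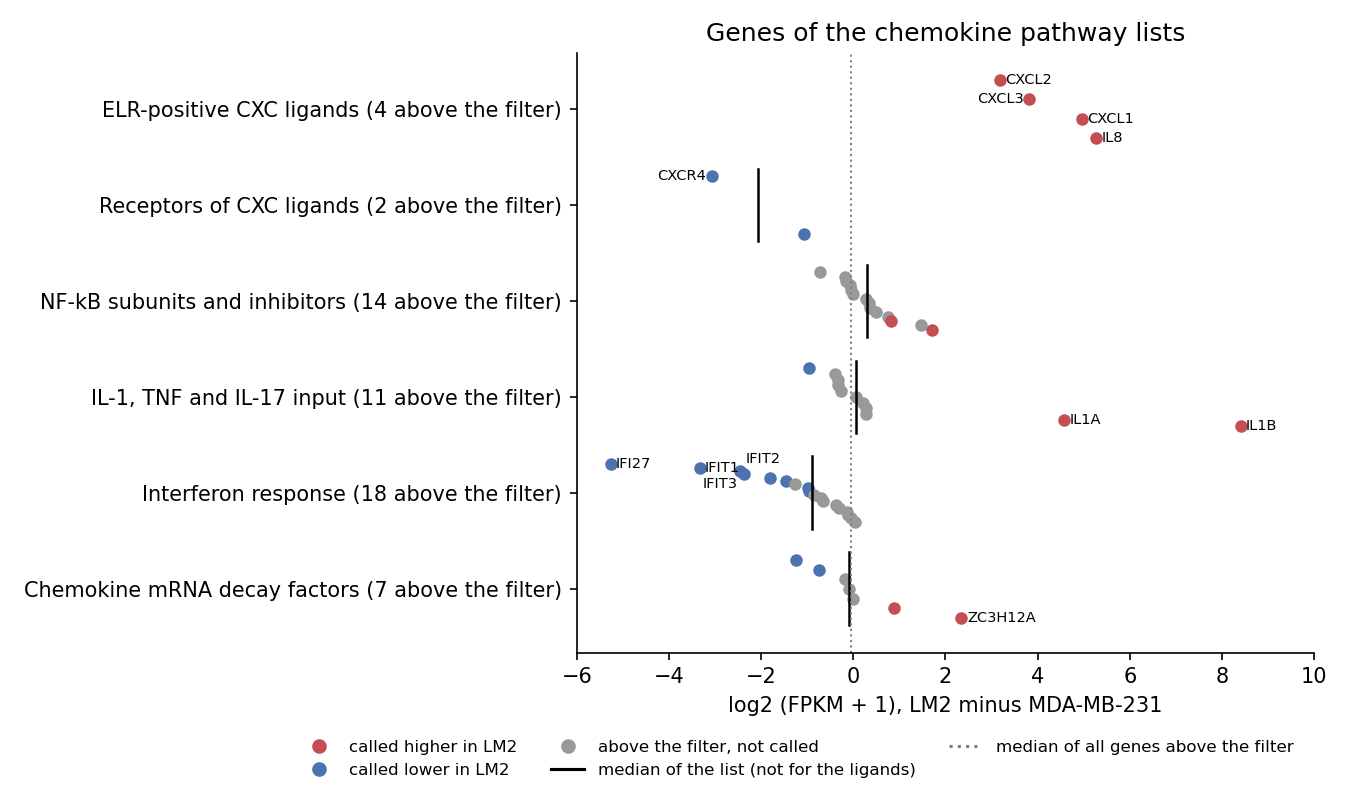
Log2 difference of FPKM + 1, LM2 minus MDA-MB-231, for each gene above the filter in 6 lists around the CXC ligands. Each point is a gene, red if called higher and blue if called lower, the black bar is the median of a list and the dotted line that of all genes above the filter (-0.04). IL1B (8.40) and IL1A (4.57) lie to the right, IFI27 (-5.27) and the IFIT genes to the left, and the NF-kB list around 0.31.

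The genes with the most similar pair of levels were found by the distance in log2 of FPKM + 1 over the 2 cell lines. For IL8 they were IL6 (distance 0.78), with 12.5 FPKM in MDA-MB-231 against 245 FPKM in LM2, SPARC (0.92), with 13.6 and 232 FPKM, and CSF2 (1.21), with 10.1 and 151 FPKM. IL6 and CSF2 encode cytokines, and SPARC encodes a matrix glycoprotein. For CXCL1 they were RP11-93B14.5 (0.73), with 3.01 and 71.2 FPKM, the complement gene C3 (0.95), with 6.45 and 117 FPKM, and LCP1 (0.97), an actin bundling gene, with 0.971 and 122 FPKM. With 2 points per gene, this likeness says only that the levels are close.

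Leukocytes, endothelium and platelets also make CXC ligands, so their markers were read in the same table. Of the leukocyte markers, CD3E, CSF3R, FCGR3B and MPO were listed at 0 in both cell lines, and PTPRC, which encodes CD45, was at 0.0767 and 0.0263 FPKM. The myeloid markers CD14 and CSF1R passed the filter without a call, with 1.17 and 1.75 FPKM for CD14 and 2.92 and 0.790 FPKM for CSF1R, and ITGAM was at 0.00572 and 0.0192 FPKM. The list summed to 111 FPKM in MDA-MB-231 against 181 FPKM in LM2, nearly all of it from the lysosomal gene CD68, with 107 FPKM [0, 238] and 179 FPKM [10.6, 347]. The endothelial markers VWF and CDH5 summed to 0.0465 and 0.147 FPKM, and the platelet markers ITGA2B and GP9 to 0.112 and 0.254 FPKM. Of 3 lung epithelium markers, SFTPC and SCGB1A1 were listed at 0 in both, and the list summed to 0.158 FPKM in MDA-MB-231 against 0.00281 FPKM in LM2.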

How the data were processed

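MDA-MB-231 and LM2-4175 (LM2) were compared with 2 libraries of total RNA each, prepared with the TruSeq kit and sequenced with paired-end reads. Per the methods and labels, the authors mapped reads to hg19 with TopHat 2.0, used the GENCODE 19 annotation and quantified genes with Cufflinks and Cuffdiff. The deposited values are FPKM, 1 per gene and cell line, with a status and a lower and an upper bound in the same unit, whose making the authors do not state. Normalization and strand use are not given in the sources used here.

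With pooled values no test between replicates could be run. Changes are log2 ratios of FPKM + 1 (Python 3.11.15, pandas 2.3.3, NumPy 2.4.6), which understate changes of low genes. A difference was called from a fold of at least 1.5, a mean of at least 0.5 FPKM and bounds that did not overlap. The calls were tested on simulated data.

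The members and lists were chosen with earlier results of these data known. Named are all members, other CXC ligands and receptors, genes above the filter within 500 kb, at most 5 genes of each pathway list and the 3 nearest genes of IL8 and CXCL1. Genes of the marker lists, TNF and the AUUUA counts were added after values were seen. Positions come from GENCODE 44 on GRCh37 (2280 gene IDs were not in it), and sequences from RefSeq on GRCh38.p14. Alternatives were other pseudocounts, filters, folds and scalings. PECAM1 was not analysed here, 1 gene of the marker lists is not reported here, and protein sequences were not used here.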

Additional observations from a re-analysis of the deposited data

How the results depend on the processing

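The 4 members called higher and the 0 called lower were the same in number under the 10 alternatives of other pseudocounts, filters, folds, the fold or the bounds alone, TPM and median scaling. The 4 were chosen with this contrast known, and their bounds allow ratios of no less than 6.17. These settings could therefore hardly change the count of 4, and its constancy is no test. With the fold alone, without a pseudocount or a filter, tried after seeing the data, 6 members were higher and 4 lower, so every member was called, and over all genes 7954 were higher and 6140 lower. Over all genes 649 were higher and 641 lower. These were 1434 and 1640 with the fold alone, 321 were higher at a mean of at least 5 FPKM, where fewer genes enter, and 403 were lower at a fold of at least 2. TPM scaling raised the values of LM2 relative to those of MDA-MB-231 by 0.08 on the log2 scale, and 57.3% of calls were then higher, against 50.3% as deposited. The members' log2 differences were read again under the other pseudocounts and the scalings. By the standard error drawn from the bounds, 17 of these values moved and 22 did not. A reversal of sign was looked for only in the 4 called members, whose differences are too large for these settings to reverse. Counts of members with a motif were unchanged when the window ran to 50 bases after the start. No paired analysis was possible because the table holds 1 value per cell line, and leaving out a replicate was not run for the same reason. The table holds no read counts and no value per library, so the depth and the replicate spread behind a value could not be read from it.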
